A study of Mus musculus with 15 samples.

Results

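The response of cultured HY19636 cells to DON was described across the transcriptome. The comparison used 6 of the 15 samples of the series, 3 cultures given DON at 25 µM for 24 h and 3 control cultures given none, and these were chosen by their labels and by the table of this comparison. Of the 55291 genes in that table, 13556 had a mean normalized count of at least 10 over the 6 libraries and were tested. The other samples were 3 cultures kept without glutamine (Gln), which are compared with DON at the end, and 6 tumors, which were not used here.

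HY19636 is a murine pancreatic ductal adenocarcinoma (PDAC) line that the study derived from tumors of C57BL/6 mice with p53 L/+ and Ptf1a Cre+, in which Cre is driven in the pancreas. Treated and control cells share the same engineered mutations, p53 among them, and stand for 1 line. They were grown in 2D in DMEM with serum, and nothing in the labels says whether the 3 samples of a group were separate cultures or were set up on separate days. P-values here measure the spread between these samples, which may be technical.

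DON (6-diazo-5-oxo-L-norleucine) is a Gln analog that binds irreversibly to enzymes that use Gln. Those enzymes move the amide nitrogen of Gln into purines, pyrimidines, asparagine and hexosamines. When amino acids run short, the kinase GCN2 and the transcription factor ATF4 turn on genes of amino acid uptake, synthesis and tRNA charging, which is an arm of the integrated stress response.

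The DON libraries held 25.2, 32.5 and 35.4 M reads and the control libraries 27.1, 27.2 and 48.2 M. The control columns share a name with the vehicle tumors of the series and were read as control cultures from the table's title, and their markers of other cell types follow. Control library 3 was the deepest, and without it 9641 genes were called, against 9226 with all libraries. Mitochondrially encoded genes took 1.02 to 1.29% of the reads of every library, with both groups overlapping. All 6 ductal tumor markers were detected, and their summed normalized counts ran from 331490 to 427550 in control and from 113870 to 121550 in DON cells, with 5 lower and 1 higher by the test described next. None of 9 leukocyte markers reached the minimum mean, their sum ran from 16.2 to 18.7 in control and from 6.46 to 14.3 in DON cells, and Cd3e, Cd4, Adgre1 and Lyz2 were at 0 in all 6. Of 8 fibroblast markers 2 reached it, with sums from 478.0 to 646 in control and from 122.95 to 159.8 in DON cells, and Dcn, Lum, Pdgfrb, Col1a2 and Acta2 at 0 in all 6. Of 4 endothelial markers 2 reached it, with sums of at most 122.8 in control and 26.9 in DON cells.

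Changes were tested on log2(normalized count + 1) with limma, and a gene was called at a Benjamini-Hochberg adjusted p under 0.05. After DON, 4520 genes were higher (33.3% of those tested) and 4706 were lower (34.7%). Counts of list members below are to be read against these shares. At least 2-fold higher were 1690 genes (12.5%) and at least 2-fold lower 2470 (18.2%). Standard errors (SE) and changes in parentheses are on this log2 scale, which understates changes of genes with few reads. Large falls were more frequent than large rises, since 393 called genes fell at least 8-fold and 162 rose as far. Over all tested genes the median change was 0.02 on the log2 scale, and the median residual SD between replicates was 0.16. Quantile normalization moved that median to 0.13, so changes near 0 hold only relative to this scale. For 2545 genes (18.8%) the 95% interval lay within 0.5 of 0 on the log2 scale, so a change of more than 0.5 was outside their interval. In such bulk samples fewer cells of a type and less RNA per cell cannot be told apart.

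**Figure D1:**
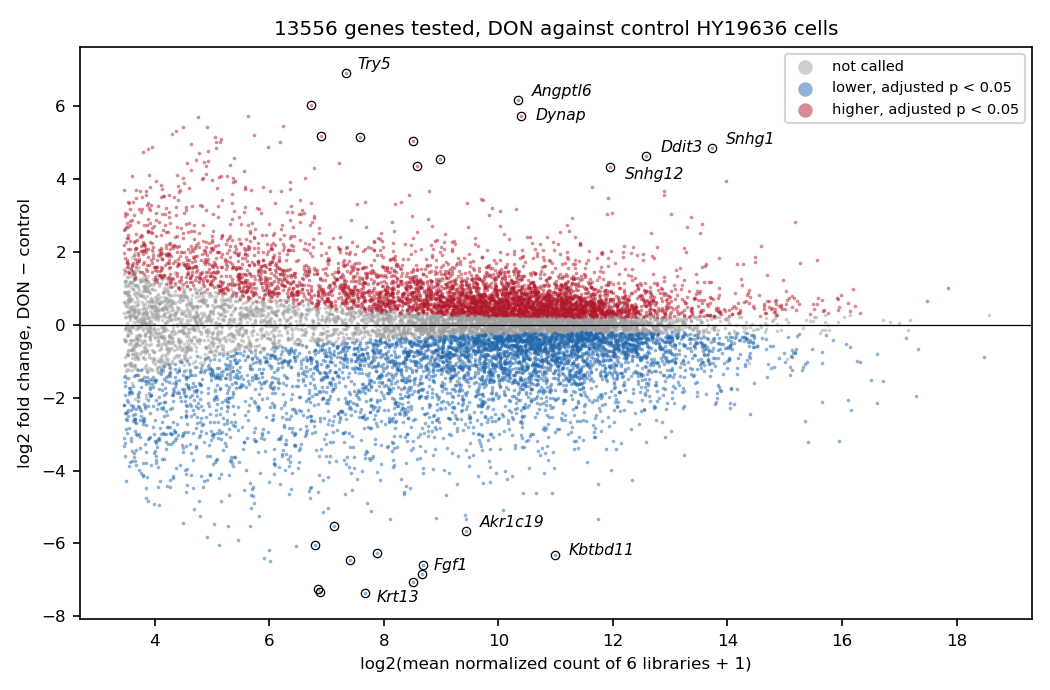
Log2 fold change (DON minus control, y axis) of 13556 genes against the log2 mean normalized count of the 6 libraries (x axis), each point a gene, with red higher, blue lower and grey not called. Circles mark the 24 genes with the largest rises and falls by the naming rule, which lie between -7.36 (Krt13) and 6.91 (Try5).

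The 12 largest falls included a keratin, a growth factor and several enzymes. Krt13, a keratin of stratified epithelia (ENSMUSG00000044041, chromosome 11 from 100117300 to 100121600, by the deposited annotation, whose coordinates are those of GRCm38), had 401, 427 and 382 normalized counts in the 3 control libraries and 2.39, 0 and 3.36 in the 3 DON libraries (-7.36 on the log2 scale, SE 0.48, adjusted p = 9.39e-09 with limma). Fgf1, a fibroblast growth factor, had 861, 716 and 834 in control and 5.97, 5.54 and 6.72 in DON cells (-6.83, SE 0.23). Kbtbd11 had 3800.3, 4436 and 3733 in control and 53.7, 36 and 61.3 in DON cells (-6.31). In each of these genes every DON library lay far below every control library, but the naming rule had required groups without overlap. Ddc, which decarboxylates aromatic amino acids, fell from 783, 759 and 638 to 4.77, 5.54 and 3.36, and the aldo-keto reductase gene Akr1c19 from 1412, 1296 and 1341 to 29.8, 22.2 and 26. The anion transporter gene Slc26a9, Hsd17b14, Tm4sf20, Ccdc184 and Tnip3, an inhibitor of NF-kappaB signaling, had log2 fold changes of -6.60, -6.45, -6.27, -6.04 and -5.53. Gjb1, a gap junction connexin, had 293, 245 and 168 normalized counts in control cells and Igfbp5, an insulin-like growth factor binding protein, 191, 242 and 249, and each had only 2 reads in the 3 DON libraries together.

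The 12 largest rises included secreted proteins, a channel and noncoding RNAs beside the stress gene Ddit3 (4.64). Angptl6, an angiopoietin-like secreted protein (ENSMUSG00000038742, chromosome 9 from 20873810 to 20879730), had 27.7, 47.5 and 30.5 normalized counts in control and 2496, 2859 and 2325 in DON cells (6.18 on the log2 scale, SE 0.19, adjusted p = 1.33e-11 with limma). Dynap had 62.9, 42.5 and 44.2 (control) and 2720.5, 2515 and 2687 (DON) (5.72). Snhg1, a noncoding RNA that hosts snoRNAs in its introns (ENSMUSG00000097188, chromosome 19 from 8723496 to 8726442), had 868, 762 and 1089 in control and 25485, 29685 and 23619 in DON cells (4.86, SE 0.13). No DON library of these 3 genes came near a control library, and absence of overlap was again a condition for naming them. Try5, a trypsin gene of acinar cells, has near-identical copies and is therefore uncertain. It went from 0, 2.5 and 3.9 to 339, 212 and 411 (6.91). In DON cells it made up most of the sum of 8 acinar and islet markers. That sum ran from 55.3 to 64.96 in control and from 238 to 431 in DON cells, with Cpa1, Ins2, Gcg and Sst at 0 in all 6 libraries. Only 2 of these markers reached the minimum mean, and the one beside Try5, Cela1, was lower after DON (-2.06). Aoc3, an amine oxidase, rose by 6.04, the water and glycerol channel gene Aqp9 by 5.17, the secreted carbonic anhydrase gene Car6 by 5.16, and Stbd1, whose protein binds glycogen, by 5.05 on the log2 scale. The other 3 were Atp13a4 (4.56), Gpnmb (4.35), a lysosomal and melanosomal glycoprotein, and Snhg12 (4.34).

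Among the 10 genes with the highest counts in control cells, which are not corrected for length, changes went both ways. The keratin gene Krt8 fell from 178542, 173568 and 138598 to 37897, 35699 and 35795 normalized counts, and Clu, a secreted chaperone, from 252713, 291496 and 219669.6 to 72064, 51431 and 73548. The elongation factor gene Eef2 rose from 166777, 175442 and 132994 to 322963, 319596 and 303695, a log2 fold change of 1.00, and the ribosomal stalk gene Rplp0 by 0.65. In both pairs the DON and control libraries were apart without overlap. Pkm fell by 1.53, S100a6 by 0.65 and mt-Co1 by 0.35 on the log2 scale, the last no longer called without DON replicate 1 or 2. Rps2 (log2 fold change -0.15) and Eef1a1 (0.28) did not pass the test. A transcript given only as CT010467.1 varied from 239416 to 754552 among control libraries, overlapped the DON libraries, and lost its call when any of 4 libraries was left out.

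**Figure D2:**
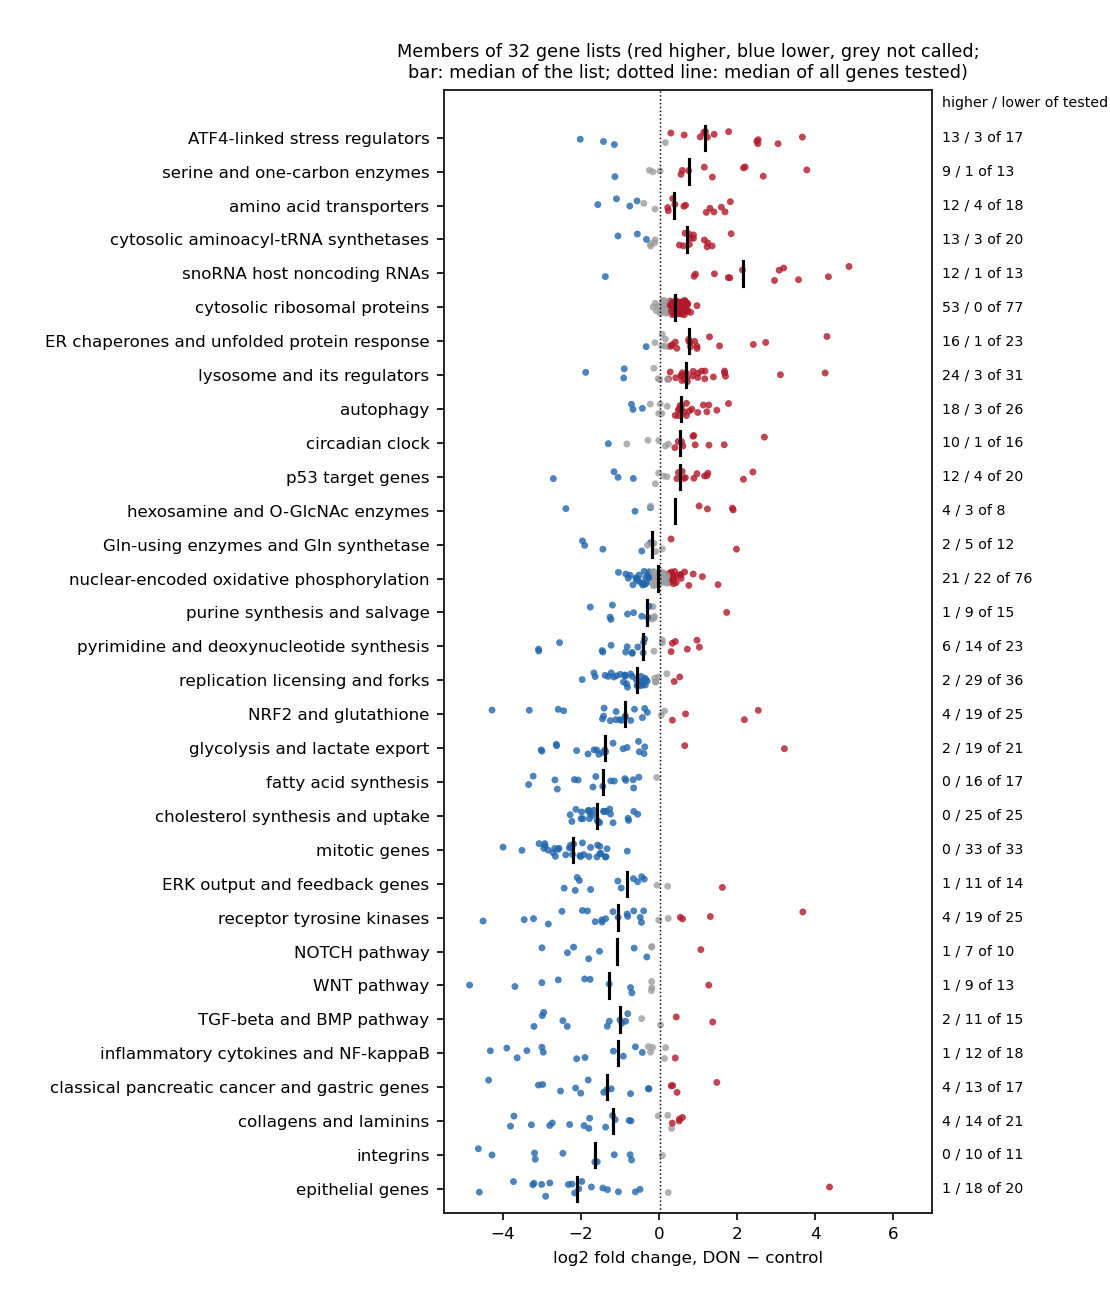
Log2 fold change (DON minus control, x axis) of every tested member of 32 gene lists, each point a gene (red higher, blue lower, grey not called), with the median of each list as a bar and the median of all genes as a dotted line. Amino acid, snoRNA host, ER and lysosome lists lie to the right, and mitotic, lipid, glycolytic, integrin and epithelial lists to the left, with all 33 mitotic genes and all 25 cholesterol genes lower.

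Of 12 tested genes of Gln-using enzymes and Gln synthetase, 2 were higher, 5 lower and 5 not called, with a median log2 fold change of -0.18, and shares of 16.7% higher and 41.7% lower stood against 33.3% and 34.7% of all genes. Asns, asparagine synthetase, rose from 4772, 4105 and 3290.4 to 16430.3, 15802 and 15414 normalized counts (1.99, SE 0.12, adjusted p = 3.43e-09, limma). Cad, the enzyme that starts pyrimidine synthesis, rose by 0.31. The lowest DON value lay above the highest control value for both. Ppat, which starts purine synthesis, had 2622, 2589 and 2868 in control and 2433, 2478 and 2355 in DON cells and did not pass the test (-0.15, 95% interval -0.34 to 0.037). The same held for Gmps (-0.13) and Ctps (0.087), whose groups overlapped, and the 95% intervals of these 3 genes all lay within 0.5 of 0. Ctps2 fell from 1007, 939 and 947 to 389, 269.6 and 429.8 and Pfas by 0.44 on the log2 scale. Gfpt1, the first enzyme of hexosamine synthesis, had a difference of -0.22 that was lost under 10 alternatives. Glul, which makes Gln from glutamate, fell most of the list, from 10675, 10683 and 8915 to 2676, 2499 and 2602 normalized counts (-1.96).

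Serine and one-carbon genes, amino acid transporters and cytosolic tRNA synthetases were mostly higher. Among 13 serine and one-carbon genes 9 were higher and 1 lower (median 0.76). Aldh1l2 and Mthfd2 are mitochondrial folate enzymes. Aldh1l2 rose from 438, 442 and 402 to 5924, 6188 and 5606 normalized counts (3.79, SE 0.095) and Mthfd2 from 3026, 2747 and 2438 to 16945, 18655 and 16567 (2.67), with no overlap between the groups. Psph rose by 2.16, the serine pathway genes Phgdh and Psat1 by 0.57 and 0.76, and the cytosolic Aldh1l1 fell from 850.1, 1108 and 796 to 534, 258 and 523. Of 18 amino acid transporter genes 12 were higher and 4 lower, led by Slc3a2, the heavy chain that several exchangers share (7039, 6714 and 5833 to 22104, 25403 and 21976), Slc6a9 (1.69) and Slc7a1 (1.41). The Gln carrier gene Slc1a5 moved by 0.24 and Slc7a5 by 0.23, and both lost their call without DON replicate 2 or 3. The taurine transporter gene Slc6a6 fell by 1.56.

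Among 20 cytosolic aminoacyl-tRNA synthetase genes, 13 were higher and 3 lower (median 0.72). Nars, which charges tRNA with asparagine, rose most, from 10283, 9943 and 9658 to 36635, 37150.0 and 33956 (1.85, SE 0.087, adjusted p = 4.31e-10, limma). Sars, Aars, Yars and Eprs rose by 1.36, 1.25, 1.23 and 1.16. Qars, the synthetase for Gln, had 8715, 8763 and 6974 in control and 7469, 7812 and 7456 in DON cells, with overlapping groups (-0.10, adjusted p = 0.398, limma). Farsb fell by 1.05, Vars by 0.55 and Kars by 0.32, the last not under quantile normalization, and without control replicate 3 the number lower was 6. The 17 mitochondrial synthetases had 5 higher, 4 lower and 8 not called, against 33.3% and 34.7% of all genes, and 8 higher under quantile normalization. Of 17 ATF4-linked regulators, 13 were higher and 3 lower (median 1.19), with Trib3 from 1265, 1128 and 962 to 14243, 14600.1 and 13682 and Cth, which makes cysteine, from 948, 737 and 783 to 6944, 6400.2 and 7001. Ddit4, an inhibitor of mTORC1, went the other way, from 5394, 6266 and 5245 to 1535, 1036 and 1696. In the proline, arginine and polyamine list 6 of 19 genes were higher, near the 33.3% of all genes, and 8 lower. Changes ran from Pycr1 at 2.05 to Smox at -1.54, and 3 genes were higher without DON replicate 1 or at an adjusted p under 0.01.

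The letters TGATGNAA, part of the amino acid response element bound by C/EBP-ATF complexes, were searched on both strands in the 250 bases before each start in RefSeq promoters (GRCm38.p6), which 10097 of the tested genes matched by symbol. They occurred for 237 of those genes (2.35%, beside 3.91% of all 27025 promoters in the table), for 4 of 13 ATF4-linked regulators with a promoter, 3 of 13 cytosolic synthetases, 2 of 13 transporters and 0 of 11 serine and one-carbon genes. The sequences shown were picked by the size of the change among the named and called genes of these lists with a match, with some genes not reported here. They are Chac1 (log2 fold change 2.54), whose protein degrades glutathione, and Aars (1.25). Capitals mark the matched letters, here on the reverse strand, and both genes lie on the plus strand. The stretch of Chac1 is chr2:119351009-119351096 with the match 193 bases before the start, and that of Aars is chr8:111033690-111033777 with the match 112 bases before it.
Chac1: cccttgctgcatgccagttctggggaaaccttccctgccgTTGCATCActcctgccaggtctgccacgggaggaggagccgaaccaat
Aars: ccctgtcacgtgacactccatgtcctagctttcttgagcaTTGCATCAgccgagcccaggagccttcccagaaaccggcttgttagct

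Cytosolic ribosomal protein transcripts rose by little and those of snoRNA hosts by much. Of 77 cytosolic ribosomal protein genes 53 were higher and 0 lower, with log2 fold changes from -0.15 to 0.98 and a median of 0.41. None reached 2-fold, and without control replicate 3 there were 3 lower. Rpl3 rose most, from 57069, 50884 and 43509 to 100576, 103748 and 92085 normalized counts (0.98), and many of these genes have processed copies that could share reads. Of 13 noncoding snoRNA hosts 12 were higher and 1 lower (median 2.14), against 33.3% higher among all genes. Snhg16 rose from 209, 139 and 216 to 1604, 1939 and 1561 and Zfas1 from 1332, 997 and 1215 to 13669, 15208 and 13103. Snhg18 fell from 93.1, 58.7 and 57.2 to 21.5, 25.9 and 30.2. The RNAs of this group are spliced like messenger RNAs but are poorly translated, and their introns carry snoRNAs that guide modification of ribosomal RNA. Among 48 ribosome biogenesis genes 25 were higher and 7 lower (median 0.29), with Nop14 at 1.27 and the fibrillarin gene Fbl at -0.47. Of 35 initiation factors 14 were higher, near the 33.3% of all genes, and 8 lower (22.9%, against 34.7% of all genes). Eif2b3, a subunit of the exchange factor that the stress response inhibits, rose by 1.48, Eif1 by 1.22, and Eif5a fell from 51671, 51081 and 42732 to 22574, 21207 and 21350.1. Mitochondrial ribosomal proteins had 29 of 77 higher, also near the 33.3% of all genes, and 14 lower (18.2%, against 34.7%).

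Nucleotide synthesis genes were more often lower. In the purine list 1 of 15 was higher and 9 were lower (median -0.29). Impdh2, which commits IMP to guanine nucleotides, was the gene that rose, from 11536, 10969 and 9087 to 34928, 38573 and 31467 normalized counts (1.73, SE 0.11), while its paralog Impdh1 fell from 2743, 2932 and 2409.7 to 1139, 1183 and 1117. The paralogs changed in opposite directions, each with no overlap between groups. Adssl1 fell by 1.76, Aprt, a salvage enzyme, by 1.25, and Paics by 0.80. In the pyrimidine and deoxynucleotide list 6 of 23 genes were higher and 14 lower. Genes used in S phase had the largest falls. Rrm2, a subunit of ribonucleotide reductase, went from 13721, 13257 and 14150.3 to 1595, 1929 and 1394 (-3.08), Tk1 from 4982, 4953 and 4580.4 to 500.2, 679 and 547 and Rrm1 from 6544, 6924 and 6298 to 1097, 1215 and 1078. The forms used outside S phase went the other way, Rrm2b by 0.97 and Tk2 by 0.73, and Uckl1, a uridine kinase, by 1.04.

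The enzymes that add and remove O-GlcNAc moved in opposite directions. Ogt, the transferase, rose from 2674, 2573 and 3169.6 to 10563, 10072 and 10254 normalized counts (1.88, SE 0.095), and Oga, the hydrolase, fell from 5487, 5906 and 6182 to 1061, 1126 and 1189 (-2.38, SE 0.091). Uap1l1 rose by 1.24 and the salvage kinase gene Nagk by 1.03, and Uap1 fell by 0.61. Gnpnat1 had few counts, 8.8, 2.5 and 15.6 in control and 33.4, 16.6 and 47.9 in DON cells, and was not called without DON replicate 3. Of 27 N-glycan and hyaluronan genes 6 were higher and 14 lower, with Mgat5, which branches N-glycans, at 6017, 6679 and 5855 (control) and 1660.5, 1574 and 2085 (DON). The hyaluronan synthase gene Has3 fell by 1.51, and Has2 from 26.4, 37.5 and 30.5 to 4.77, 0 and 1.68.

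**Figure D3:**
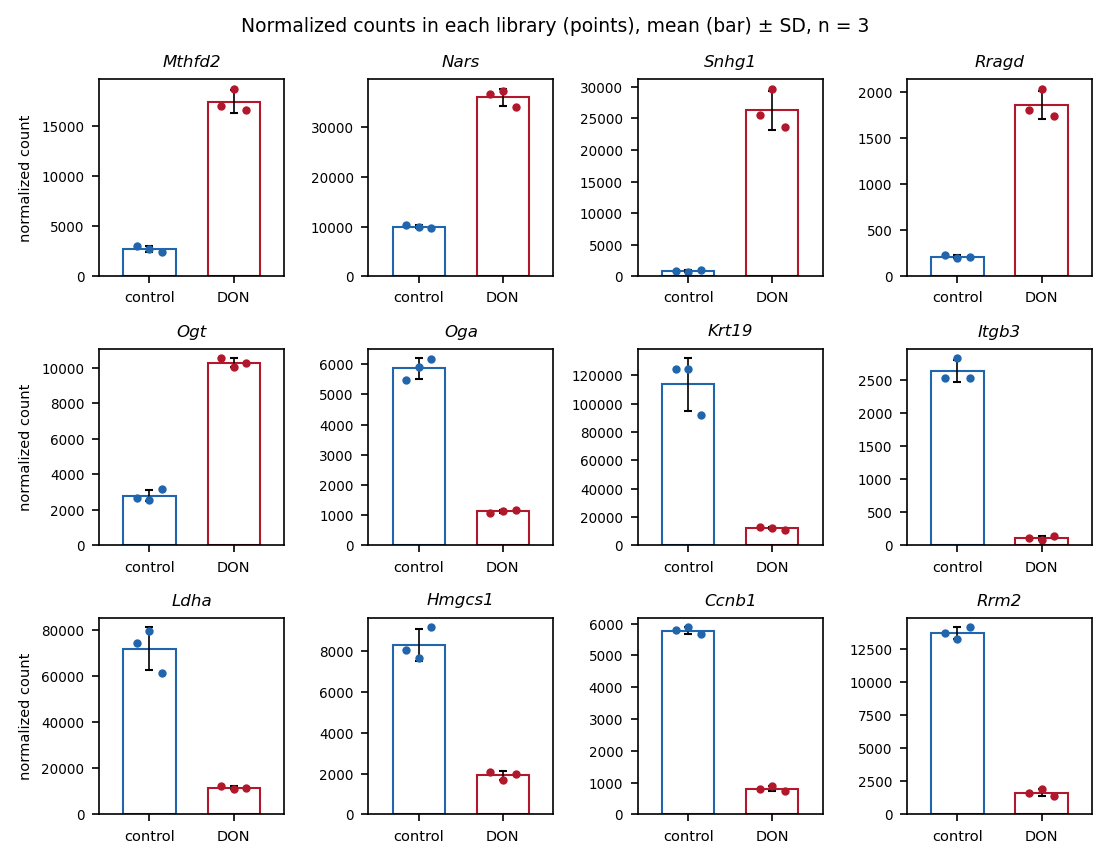
Normalized counts (y axis, starting at 0) of 12 genes in each control and DON library (points), with the mean of 3 libraries as a bar and the SD as an error bar. In none of the 12 panels do the DON points overlap the control points, which held for 71.9% of all tested genes. Ogt and Oga, drawn side by side, differ in direction.

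Most glycolytic genes fell. Of 21 genes of glycolysis and lactate export, 19 were lower and 2 higher (median -1.38), and 13 fell at least 2-fold, against 18.2% of all genes. Ldha, lactate dehydrogenase A, fell from 74551, 79737 and 61427 to 12245, 10889.9 and 11608 normalized counts (-2.63, SE 0.11, adjusted p = 1.17e-10, limma). Pfkl, a phosphofructokinase, fell from 11971, 13413 and 10287 to 2151, 1665 and 1995, and the lactate exporter gene Slc16a3 from 2547, 3432 and 2277 to 409, 247 and 388. For all 3 every control library lay far above every DON library. The glucose transporter gene Slc2a1 and the hexokinase gene Hk2 fell by 0.52 and 0.50 on the log2 scale. Eno2 rose from 22.6, 2.5 and 11.7 to 86, 74.8 and 126 and Pfkfb4 by 0.66. In the pentose phosphate pathway 5 of 8 genes were lower and 1 higher, with G6pdx at 4632, 4848 and 3639 in control and 1338, 1305 and 1339 in DON cells.

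The TCA cycle list had 6 of 35 genes higher and 16 lower (median -0.12), and the number higher was 11 under quantile normalization. Idh1 fell from 7135, 6547 and 7013 to 1585, 1142 and 1425, the citrate carrier gene Slc25a1 by 1.66, malic enzyme Me1 by 1.64 and Acly by 1.23, all of which supply citrate, acetyl-CoA or NADPH outside the mitochondrion. Gpt2, which makes alanine and takes nitrogen from glutamate, rose from 1549, 1507 and 1374 to 5285, 5372 and 5264 (1.85), Pcx, which makes oxaloacetate, by 0.87 and Got1 by 0.44. Glud1, glutamate dehydrogenase, did not pass the test (0.046, 95% interval -0.14 to 0.23). The 76 nuclear genes of oxidative phosphorylation had 21 higher (27.6%), 22 lower (28.9%) and a median of -0.019. Both shares were below the 33.3% and 34.7% of all genes. Quantile normalization put 32 of them higher, and leaving out control replicate 1 or 3 put 14 or 34 lower. Of the 10 mitochondrially encoded genes 6 were lower, mt-Cytb most, from 46341, 46204 and 59078 to 17618, 20907 and 20065.

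Nearly all sterol and fatty acid genes fell. All 25 genes of cholesterol synthesis and uptake were lower (median -1.58), and 21 fell at least 2-fold. Srebf2, the transcription factor of the pathway, fell from 19549, 21233 and 17258 to 11419, 9999 and 12529.5. No DON value of this gene reached the lowest control value. Of 17 fatty acid synthesis genes 16 were lower and 0 higher (median -1.44). The desaturase gene Scd2 fell from 113479.9, 122234 and 106198 to 27987, 22765 and 31318, Fads2 from 11387, 12174 and 9702 to 1229.5, 959 and 1415 and the elongase gene Elovl6 from 3068, 2799 and 4197 to 388, 218 and 412. Fasn, the fatty acid synthase gene, fell by 0.65. Phospholipid and sphingolipid genes had 9 of 34 higher, 14 lower and a median of -0.049, beside 33.3% higher and 34.7% lower among all genes. They ran from Pcyt1b at -1.75 to Gpat3 at 1.04 among genes with a mean of at least 100.

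The letters TCACNCCAC, a form of the sterol regulatory element, were found before the start of 125 of 10097 tested genes (1.24%, beside 1.225% of all promoters), 1 of 17 cholesterol genes and 1 of 14 fatty acid genes. The stretch of Hmgcs1, which makes HMG-CoA and fell from 8041, 7682 and 9198 to 2077, 1669.5 and 1980.4, is shown as the cholesterol gene with the match in capitals. It is chr13:119690174-119690262 of the plus strand, with the match 137 bases before the start.
Hmgcs1: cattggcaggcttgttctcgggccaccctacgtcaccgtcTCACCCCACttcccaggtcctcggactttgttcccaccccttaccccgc

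Genes of the oxidative stress program were mostly lower. Of 25 NRF2 and glutathione genes 19 were lower and 4 higher (median -0.86). The glutathione transferase gene Gsta4 fell from 11204, 9902 and 8440.4 to 499, 526 and 494 normalized counts (-4.27, SE 0.11), Gstm1 from 1889, 1968 and 1394 to 271, 257 and 348, and Gclc, the rate-limiting enzyme of glutathione synthesis, from 3507, 3253 and 3717 to 1638, 1486 and 1761. The 4 that rose were Chac1 (2.54), Hmox1 (2.19), the cystine carrier gene Slc7a11 (0.68) and Sod2 (0.35). Nqo1 was near the limit of the table, at 26.4, 9.99 and 18.8 in control and 0, 0 and 5.04 in DON cells. Metallothioneins rose, Mt1 by 0.92 and Mt2 by 1.24, in an iron and metal list with 3 of 11 higher and 4 lower, near the shares of all genes.

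ER chaperones and cytosolic chaperones differed. Of 23 ER and unfolded protein response genes 16 were higher and 1 lower (median 0.76). Derl3, a factor of ER-associated degradation, rose from 8.8, 15 and 6.5 to 205, 248 and 174, Crebrf from 488, 554 and 845 to 4240.1, 4038 and 3951, and Hspa5, the main ER chaperone BiP, from 23309, 22539 and 23347 to 42834, 46433 and 41354. Xbp1 did not pass the test (0.070, 95% interval -0.13 to 0.27). Of 13 cytosolic heat shock genes 7 were lower and 1 higher, with Hspb1 from 3370.3, 3517 and 2515 to 318, 212 and 260.2 and the inducible Hspa1a, which could share reads with its near-identical copy Hspa1b, from 219, 221 and 207 to 48.9, 48.9 and 28.5. Proteasome subunits had 17 of 31 lower and 2 higher (median -0.25), with Psmd1 lowest at -1.41. Under quantile normalization the proteasome counts were 9 lower and 10 higher, so the direction of that list rests on the scale.

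Most lysosome and autophagy genes rose. Of 31 lysosome genes 24 were higher and 3 lower (median 0.70), against 33.3% higher among all genes. Rragd, a GTPase of amino acid sensing at the lysosome, rose from 231, 202 and 210.4 to 1809.7, 2035 and 1744 normalized counts (3.11, SE 0.12, adjusted p = 6.18e-11, limma), and the lysosomal calcium channel gene Mcoln1 from 1409.7, 1472 and 1271 to 4456, 4486 and 4584. Within the family of transcription factors that drive these genes, Mitf rose from 5.03, 0 and 1.3 to 33.4, 53.6 and 50.4, and Tfeb fell from 1014, 895 and 679 to 223, 247 and 225. Fnip1 rose by 1.68 while its paralog Fnip2 did not pass the test (-0.015). Of 26 autophagy genes 18 were higher and 3 lower (median 0.56). Sqstm1, a cargo receptor, went from 23519, 23183 and 18638 to 77754, 70163 and 75723, Calcoco1 by 1.48, Atg14 by 1.28 and Atg12 by 1.23 on the log2 scale, while Wipi1, Atg2a and Atg7 fell by 0.70, 0.66 and 0.42.

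Every mitotic gene of the list fell. The 33 log2 fold changes lay between -3.99 and -0.81, with a median of -2.21, and 32 were at least 2-fold, against 18.2% of all genes. Plk1, a mitotic kinase, had 3502, 3554 and 2863 normalized counts in control and 217, 378 and 294 in DON cells. Ccnb1, the mitotic cyclin, had 5799.9, 5891 and 5661 (control) and 797, 897 and 737 (DON) (-2.84, SE 0.10, adjusted p = 2.73e-11, limma), and Mki67 5708, 7376 and 9133 (control) and 2128, 2279 and 1912 (DON). DON replicate 2 was the highest DON library for each of these 3 genes but stayed below every control. Of 36 replication genes 29 were lower and 2 higher (median -0.57), against 34.7% and 33.3% of all genes, with 1 higher without DON replicate 2 or at an adjusted p under 0.01. Pole fell by 1.96 and Mcm5 by 1.63, whereas Pcna did not pass the test (-0.015) and Prim1 rose by 0.53. Of 24 G1 and E2F genes 18 were lower and 5 higher. Cyclin D1, Ccnd1, fell from 28467, 30491 and 26187 to 8571, 8384 and 8151, and the repressor gene E2f7 had a log2 fold change of -2.12. E2f1 rose by 0.79, and the CDK inhibitor genes Cdkn1a and Cdkn2b by 0.90 and 0.66. In 24 homologous recombination and Fanconi genes 11 were lower, 2 higher and 11 not called, beside 34.7% of all genes lower, with Fanci at -2.28 and Brca1 at -1.36, while Chek1 overlapped between groups.

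The letters TTTNGCGC, a form of the E2F site, stood before the start of 240 of 10097 tested genes (2.38%, beside 1.31% of all promoters), 6 of 29 replication genes, 2 of 18 G1 and E2F genes and 1 of 27 mitotic genes. The stretches of Uhrf1 (log2 fold change -1.66), which reads hemimethylated DNA, and Mcm5 (-1.63), a subunit of the replicative helicase, are shown. These were picked by the size of the change among the named genes of these lists with a match, with some genes not reported here. They are chr17:56304088-56304175 and chr8:75109316-75109403, both of the plus strand, with the capitals starting 185 and 153 bases before the start. In Mcm5 a match on each strand overlaps in 1 run of capitals. The letters TGACGTCA, the cyclic AMP response element, were found for 319 of 10097 genes (3.16%, beside 1.77% of all promoters) and are not shown.
Uhrf1: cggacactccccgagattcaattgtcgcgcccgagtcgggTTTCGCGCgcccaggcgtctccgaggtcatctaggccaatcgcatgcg
Mcm5: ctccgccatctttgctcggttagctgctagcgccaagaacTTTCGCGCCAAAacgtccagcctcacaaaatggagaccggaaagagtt

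Of 20 p53 target genes 12 were higher and 4 lower (median 0.55), in a line that the study derived from p53 L/+ mice. Plk2, a kinase of the stress response, rose from 440.1, 479.6 and 458 to 2355, 2818 and 2178, Trp53inp1 from 194, 322 and 381 to 1548, 1048 and 1329, and Mdm2 by 1.17. Btg2 fell from 819.9, 654 and 721 to 131, 83.1 and 126, and Ccng1 did not pass the test (-0.0073). Among 24 apoptosis regulators 8 were higher and 13 lower, the share higher being that of all genes (33.3%), and 34.7% of all genes were lower. Of the BH3-only genes, Hrk rose from 0, 5 and 2.6 to 45.4, 30.5 and 47, Pmaip1 by 1.25 and Bbc3 by 0.64, and Bmf fell by 2.16. Of the survival genes, Bcl2 fell from 889, 802 and 1055 to 171, 180.1 and 259 and Bcl2l2 rose by 1.61.

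Most epithelial transcripts fell. Of 20 epithelial genes 18 were lower and 1 higher, with a median of -2.10, and 16 fell at least 2-fold. Krt19, a ductal keratin (ENSMUSG00000020911, chromosome 11 from 100140800 to 100148700), had 124491, 124078 and 92047 normalized counts in control and 13101, 12533 and 11209.8 in DON cells (-3.20, SE 0.12, adjusted p = 7.41e-11, limma). Krt7 had 87108, 85015 and 64900.1 (control) and 8052, 9081 and 8004 (DON), and the epithelial transcription factor gene Elf3 3779, 3727 and 2955 (control) and 295, 209.6 and 289.6 (DON). Control replicate 3 was the lowest control library for all 3, and still above 5 times the level of any DON library. E-cadherin, Cdh1, fell from 26967, 27511 and 24244 to 7859, 7346 and 8543 and Epcam from 327, 442 and 341 to 51.3, 68.3 and 40.3. The 1 gene higher was Rab25, at 2.52, 0 and 3.9 in control and 56.1, 77.6 and 32.7 in DON cells. Of 13 mesenchymal genes 3 were higher and 7 lower (median -0.99), with 2 at least 2-fold higher and 6 at least 2-fold lower. The list as a whole thus leaned to lower values, and the 2 genes named next as rising went against it. Snai2 rose from 275, 251 and 235 to 2423, 2181 and 2241 and Zeb2 from 208, 279.7 and 346 to 1426, 1025 and 1361, while Vim (0.040, 95% interval -0.21 to 0.29) and Zeb1 (0.13) did not pass the test.

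Integrin and matrix genes were mostly lower. Of 11 integrin genes 10 were lower and 0 higher (median -1.64). Itgb3 fell from 2539, 2836 and 2536 to 105, 80.3 and 141 (-4.62, SE 0.17), Itgb4, of hemidesmosomes, from 7290.1, 8402 and 6475 to 917, 693 and 830.3, and Itga6 from 20496, 22386 and 23355 to 7314, 6266 and 7740.2. Of 21 collagen, laminin and processing genes 14 were lower and 4 higher, with the basement membrane collagen Col4a1 at 22978, 25535 and 21292 (control) and 6415, 6132 and 7641 (DON) and Lamb3 up by 0.60. In 17 genes of the classical PDAC and gastric program 13 were lower and 4 higher (median -1.33). Vsig1 fell from 6519, 6467 and 6495 to 325, 344 and 282 and Pdx1, the pancreatic homeobox factor, from 3319, 3572 and 3107 to 379.6, 388 and 409. Gata6 fell by 0.73, while Foxa1 rose from 308, 289.7 and 252 to 744, 903 and 735 and Klf5, Sox9 and Anxa10 by 0.32, 0.35 and 0.46, with Sox9 no longer called without DON replicate 3 or at an adjusted p under 0.01.

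Most receptor and output genes of growth factor signaling fell, while the genes of the cascade between them were near the shares of all genes. Of 25 receptor tyrosine kinase genes 19 were lower and 4 higher (median -1.04). Erbb3 fell from 675, 641 and 644 to 57.3, 71.1 and 50.4, Met from 2186, 2457 and 2942 to 917, 948 and 866 and Erbb2 from 3055, 3286 and 2629 to 1048, 1055 and 1159. Fgfr1 rose from 65.4, 114 and 81.8 to 181, 229.9 and 230.0, and the collagen receptor gene Ddr2 from 0, 2.5 and 1.3 to 28.6, 31.4 and 16.8. Of 8 ErbB ligand genes 3 were lower (37.5%, near the 34.7% of all genes), 0 higher and 5 not called, and 1 was at least 2-fold lower. The ligands Hbegf and Btc fell by 0.53 and 0.75 on the log2 scale, whereas Areg (-0.25, adjusted p = 0.0515, limma) and Ereg (-0.15) did not pass the test. Of 14 ERK output genes 11 were lower and 1 higher (median -0.81). Etv4 fell from 3019, 3186 and 2429 to 667, 601 and 676, Spry1 from 1535, 1437 and 1517 to 357, 364 and 373 and Dusp6 from 9087, 9731 and 8974 to 4862, 3770.3 and 4877. Dusp4, a phosphatase of the same kind as Dusp6, rose from 5982, 6641 and 5837 to 18370.1, 19226 and 19219. Of 15 genes of the RAS to ERK cascade 6 were higher and 5 lower, near the 33.3% and 34.7% of all genes, with Nras at 0.60 and Mapk3 at -1.19. Immediate early genes had 5 of 15 higher, the same share as all genes, and 7 lower. Klf2 went from 381, 481 and 396 to 1879, 1429 and 1704 and Fos from 113, 92.4 and 84.4 to 45.4, 27.7 and 52.

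In the NOTCH, WNT and TGF-beta lists most members were lower, where 33.3% of all genes were higher and 34.7% lower. In the NOTCH list 7 of 10 were lower and 1 higher, with Notch1 from 1349, 1621 and 1302 to 169.5, 146 and 225 and its target Hes1 from 2648, 2780.0 and 2349.9 to 719.8, 692 and 825. The 1 higher, Hey1, had overlapping groups and was lost without DON replicate 1 or 3 or control replicate 3. In the WNT list 9 of 13 were lower and 1 higher, with the target Axin2 at -3.69 and Tcf7 from 1162, 1129 and 1036 to 209, 149 and 204. In the TGF-beta and BMP list 11 of 15 were lower and 2 higher, with Id2 from 2963, 2686 and 3148 to 332, 317 and 306, while the activin subunit gene Inhba rose by 1.38. YAP-TEAD targets had 9 of 15 lower and 5 higher, the share higher being that of all genes. Ccn2 fell from 4604, 5113 and 4088 to 486, 533 and 478, and Ankrd1 rose by 0.71. In the MYC and MondoA network 7 of 14 were higher and 5 lower, the share lower near that of all genes. Myc went from 4420.3, 4364 and 3899 to 8189, 9025 and 8599.8. The HIF list had 5 of 17 higher, near the share of all genes, and 10 lower. Egln3, a HIF hydroxylase, went from 1928, 2387 and 2006 to 59.7, 62.8 and 60.4 and Vegfa, an angiogenic factor, from 3589, 3569 and 3733 to 9336, 9158 and 10357. Of 16 circadian clock genes 10 were higher and 1 lower, with Ciart from 312, 299.7 and 225 to 1834, 1878 and 1694.

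Most inflammatory transcripts fell. Of 18 cytokine and NF-kappaB genes 12 were lower and 1 higher (median -1.04). Cx3cl1, a membrane-bound chemokine, fell from 1835, 1959 and 1496 to 131, 55.4 and 90.7, Il33, an alarmin, from 1669, 1576 and 1938 to 138, 114 and 95.7, and the neutrophil chemokine gene Cxcl5 from 176, 151 and 176 to 16.7, 13.8 and 15.1. The cells held next to no leukocyte transcripts, as given above. Of 17 interferon and MHC class I genes 11 were lower and 3 higher, with Irf1 from 921, 1067 and 848 to 236, 191 and 226 and H2-K1 from 4422, 4219.9 and 3723 to 2642, 3005 and 2978. Among 12 secreted growth and stress factors 5 were higher and 7 lower, and their log2 fold changes ran from -6.83 (Fgf1) to 6.18 (Angptl6). Angptl4 fell from 6729, 7772 and 5567 to 219.6, 97.9 and 203 and Igfbp3 rose from 3278, 3978 and 3634 to 15663, 15462 and 15902.

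Genes were also grouped by symbol prefix, which gave 140 families of at least 10 tested genes. The families and members named here were chosen after their values were seen. Collagens (Col) and keratins (Krt) had the lowest medians, -2.24 and -2.20. Of 16 semaphorins, guidance proteins, 15 were lower and 0 higher (median -1.45), from Sema4g, at 372, 423 and 336 in control and 27.5, 28.6 and 30.2 in DON cells, to Sema3b at -0.67, with Sema4c not called. Of 15 tetraspanins, which organize membrane proteins, 13 were lower, including Tspan8 from 13138, 11983 and 13258 to 2021, 1984 and 1977, and Tspan5 and Tspan12 rose. At the other end, 202 of 330 zinc finger genes named Zfp were higher and 28 lower (median 0.62), against 33.3% and 34.7% of all genes. Zfp655 rose from 557, 629 and 923 to 2965, 2683 and 2837. Control replicate 3 was the highest control library for this gene, and without that library the Zfp counts were 220 higher and 27 lower. All 10 Zscan genes were higher, and so were 11 of 16 tRNA methyltransferase genes (Trmt) and 7 of 10 beta protocadherins, the last at low counts. Noncoding genes shared the direction, since 40.1% of 202 lincRNAs were at least 2-fold higher and 9.90% at least 2-fold lower, against 9.99% and 19.4% of 11353 protein-coding genes. The lincRNAs had a median mean count of 36.1 and the protein-coding genes of 1020, so depth differed between the types.

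**Figure D4:**
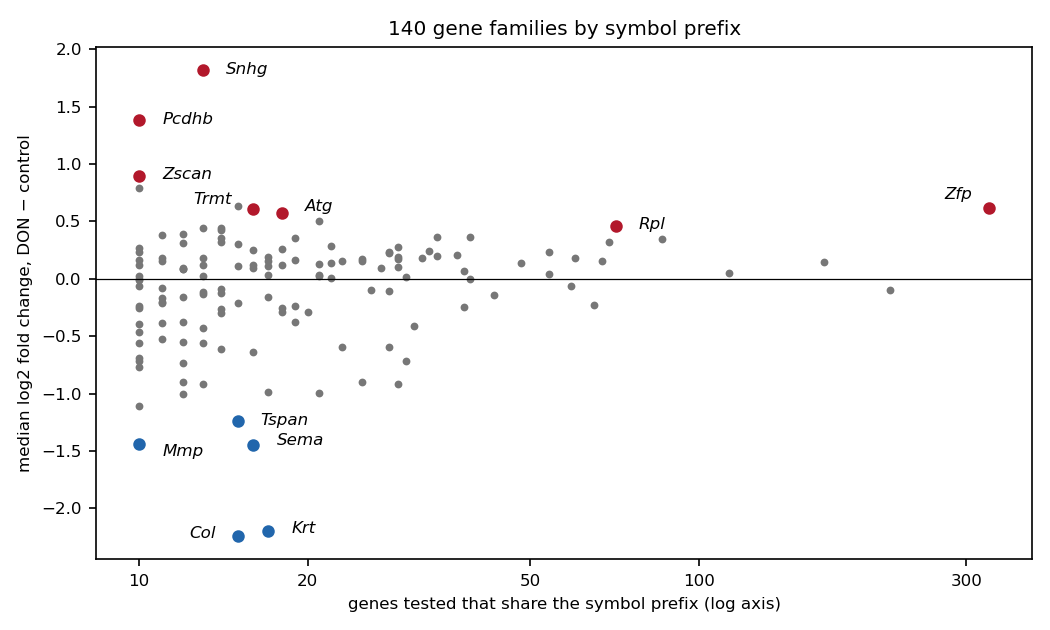
Median log2 fold change (DON minus control, y axis) of 140 gene families against the number of tested genes that share the symbol prefix (x axis, log scale), each point a family, with 12 named. Keratins and collagens lie lowest and Snhg genes highest, and the Zfp family of 330 genes has a median of 0.62.

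The DON cultures were also compared with the cultures kept without Gln for 24 h, on the recovered reads of 9 culture libraries scaled together, since both treatments limit the use of Gln. This comparison uses the same DON libraries as the one with control cells. DON and Gln-free values come from the joint scale in what follows. Of 13514 genes tested, 4188 were higher in DON (31.0%) and 4361 lower (32.3%). Serine and one-carbon genes were higher in DON in 12 of 13 and lower in 1, lysosome genes higher in 22 of 31 and lower in 3, and ribosomal proteins higher in 56 of 77 and lower in 3. Pentose phosphate genes were higher in 6 of 8 and lower in 0. ERK output genes were lower in DON in 12 of 14 and higher in 2, integrins lower in 9 of 11 and higher in 0, and inflammatory genes lower in 15 of 18 and higher in 1. ER chaperone genes were lower in 14 of 23 and higher in 4. Against control cells these 2 lists went the other way, as given above. There 5 of 8 pentose phosphate genes were lower and 1 higher, and 16 of 23 ER genes were higher and 1 lower. Mitotic genes were near the shares of all genes, 11 of 33 higher and 10 lower, with a median difference of -0.02.

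**Figure D5:**
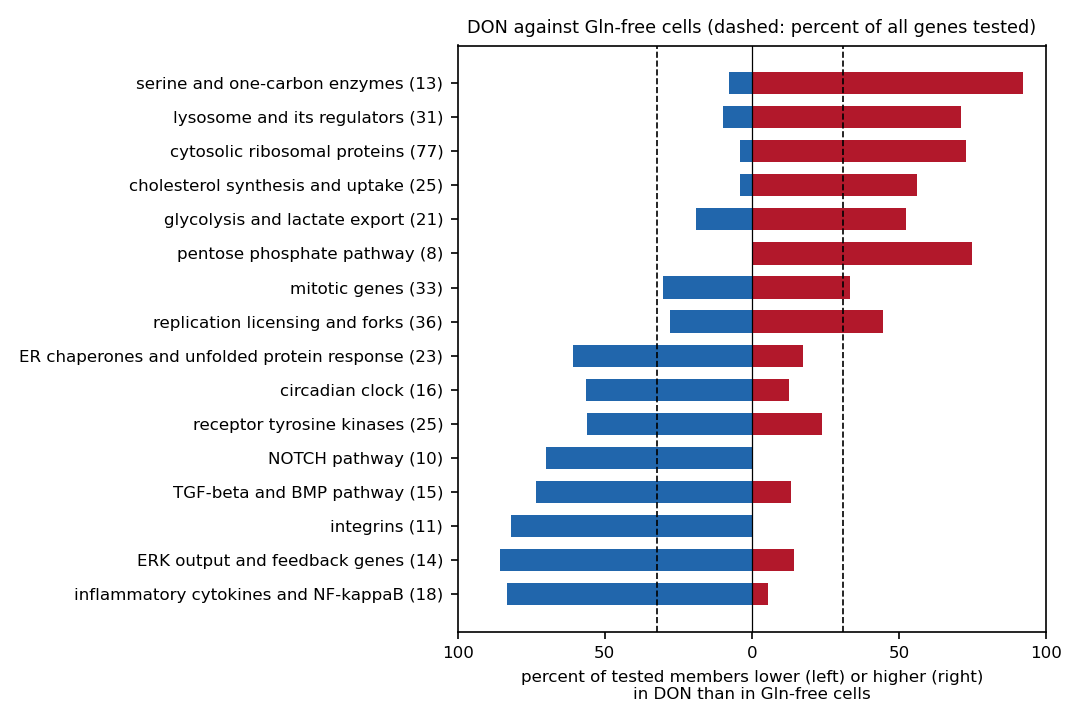
Percent of tested members of 16 lists that were lower (blue, left) or higher (red, right) in DON than in Gln-free cells, with the number tested in parentheses and the percent of all genes as dashed lines (31.0% higher, 32.3% lower). Serine and one-carbon and lysosome genes extend to the right, integrins, ERK output and inflammatory genes to the left, and mitotic genes stay near the lines on both sides.

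The genes with the largest differences included the ErbB ligand Ereg. It had 439.5, 413 and 357 normalized counts in DON and 9082, 8319.8 and 7781 in Gln-free cells (-4.38, SE 0.16, adjusted p = 2.48e-11, limma). Areg, another ErbB ligand, had a smaller difference, -3.04, with 1436, 1176 and 1421 (DON) and 11006, 10877 and 11129 (Gln-free). Gadd45g had 348, 386 and 356 (DON) and 9394, 7909 and 7339 (Gln-free), and Sema3c 619, 564 and 719.6 (DON) and 13717, 12322 and 13172 (Gln-free). Akr1c19, Tnip3 and the heparan sulfate enzyme gene Ndst3 differed by -4.28, -4.24 and -4.43 on the log2 scale (DON minus Gln-free). In each of these genes every DON value was below every Gln-free value, which the naming rule required of the largest differences. Plin4, a lipid droplet protein, had 2091, 1994 and 2385 in DON and 50.7, 67.9 and 109 in Gln-free cells, Cd68, a lysosomal membrane protein, 809, 835 and 784 (DON) and 33.8, 19.9 and 32.4 (Gln-free), and Aldh1l1 524, 254 and 514 (DON) and 10.6, 27.2 and 22.3 (Gln-free). Gpnmb was higher in DON by 4.14, Depp1 by 4.61 and Try5 by 5.29. Cd68 and Gpnmb are also macrophage markers, and Adgre1, Ptprc and the other leukocyte markers stayed below the minimum mean over the DON and control libraries.

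Other genes of Gln and nucleotide use also differed between the treatments. Qars had 7333, 7700.4 and 7330.0 in DON and 3119, 3276 and 3373 in Gln-free cells (1.20, SE 0.086), and Cad 7077, 7943 and 7361 (DON) and 3695, 3610.3 and 3647 (Gln-free). Impdh2 had 34293, 38022 and 30934 (DON) and 6994, 6468 and 6492 (Gln-free), and Txnip, an inhibitor of thioredoxin, 1597, 821 and 1619 (DON) and 9575, 10762 and 11221 (Gln-free). Qars, Cad and Impdh2 were higher in DON, and Txnip was lower, with no overlap between groups. Oga had 1042, 1109.6 and 1169 in DON and 12342, 12898 and 12103 in Gln-free cells, and Ogt 10371, 9928 and 10079.8 (DON) and 2509, 2621 and 2559 (Gln-free), so the 2 O-GlcNAc enzymes differed in opposite directions. Of the stress genes, Ddit3 (0.19), Atf3 (0.076) and Atf6 (-0.14) did not pass the test between the treatments, and Gadd45a was higher in DON by 1.52. Other stress genes that the study names are not reported here, so these do not stand for all of them.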

How the data were processed

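RNA of cultured HY19636 cells was sequenced in bulk, and reads were aligned with HISAT2 and compared with DESeq2 by the study's sequencing provider. The deposited signal values are gene counts that the authors divided by 1 size factor per library, to 2 decimals, beside columns of their own fold changes and p-values, which were not used. The submitters' processing notes also name STAR 2.5, CASAVA and GRCm39, while the deposited gene coordinates lay within 10000 bases of the RefSeq GRCm38.p6 start on the same chromosome for 475 of 484 named genes and were taken as GRCm38. The counting settings and strand use are not given in the sources used here, so overlapping and antisense genes and near-identical copies are uncertain. Deposited gene lengths were used only for the gene types and lengths of 12157 genes.

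At least 99.9895% of values gave a whole number of reads within 0.0051, and 69.6 to 72.7% of values of 1 to 20 reads were even, so both mates of a pair may have been counted. The 3 control libraries had the same reads in both culture tables. Reads carry no molecular identifiers. Libraries were grouped by their labels, with 3 per group. The control columns carry a name that the labels give to vehicle-treated tumors and were taken as the control cultures from the title of the table, which compares control with DON cells. Genes with a mean of at least 10 were tested with limma 3.58.1 (R 4.3.3) on log2(normalized count + 1), with a trended prior, and p-values were adjusted over all genes tested (Benjamini-Hochberg). For DON against Gln-free cells, the recovered reads of 9 libraries were scaled together by median-of-ratios factors. Alternatives were edgeR 4.0.16, DESeq2 1.42.0, other filters, pseudocounts and thresholds, quantile normalization, a replicate block and leaving out each library, and scripts were tested on simulated data. Replicate numbers were not taken as pairs.

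The 62 gene lists and the comparison itself were chosen with earlier results of these data known. Named were the 12 genes with the largest change in each direction among called genes without overlap and with a mean of at least 100 (1 predicted gene without a name left out), up to 4 per list and direction, fixed core members, the 10 highest in control cells and the 6 largest differences from Gln-free cells in each direction. Motifs were searched in the 250 bases before each start. Some genes are not reported here.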

Additional observations from a re-analysis of the deposited data

How the results depend on the processing

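Of the 10 counts over all genes, the number at least 2-fold higher after DON moved from 1690 to 1126 with a mean of at least 50, a setting that leaves out genes of low counts, and the counts stayed within 1.5 times of the reported value under the other alternatives. Called genes in DON against control cells ranged from 7706 (adjusted p under 0.01) to 9660 (no filter), with 9229 by edgeR, 9082 by DESeq2 and 9504 under quantile normalization, of which 5321 were higher. Leaving out 1 library at a time gave 8331 to 9641 genes. Against Gln-free cells the same gave 7776 to 9111.

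The columns share numbers across groups, but same-numbered control and DON libraries did not deviate together (r = 0.0227, 0.0031 and 0.033 across genes). With the replicate block 9216 genes were called against control and 8456 against Gln-free cells.

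Of the list counts 1943 stayed within that range and 41 moved, 9 of these under quantile normalization, and of the family counts 239 stayed and 1 moved (Pcdhb, 1 gene higher at a mean of at least 50). Of the values of named genes under an alternative, 10662 kept their direction and their side of the threshold, 164 lost and 28 gained a call, and 0 changed sign while called. The cause of these shifts was not tested. Genes with few reads, such as Mitf, Ddr2, Rab25 and Nqo1, are the least precise, and intervals cover the spread between 3 libraries only.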
